A study of Mus musculus with 6 samples.

Results

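Genes of the neurotrophin and GDNF families were followed in lumbar spinal cord of mouse embryos that carried or lacked Tnc, the gene for the matrix glycoprotein tenascin-C. They were Bdnf, Gdnf, the receptors Ntrk2, Ntrk3, Ngfr and Ret, and the co-receptors Gfra1 and Gfra2. A gene entered when 1 row of the deposited array table carried its symbol and no other symbol. Of 9 listed genes 8 had such a row, each with exactly 1 row, among 19938 genes with a single symbol, and Ntf3, for the ligand neurotrophin-3, was not analysed here. The cord was dissected at E15.5 from strain SV129, with 3 wild-type arrays and 3 arrays of genotype TNC -/-, 1 RNA sample per array. The labels call the samples biological replicates but do not say whether they came from separate embryos or litters, so p-values measure only the spread between these samples. Which part of Tnc was deleted, and in which cells, is not given in the sources used here.

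Neurotrophins are secreted proteins that keep neurons alive and shape their axons and synapses. BDNF signals through the receptor tyrosine kinase TrkB (made from Ntrk2), neurotrophin-3 through TrkC (Ntrk3), and all neurotrophins and their precursors also bind the death-domain receptor Ngfr. GDNF, made in limb muscle and peripheral glia among other tissues, first binds GFRα1 (Gfra1), a protein held on the membrane by a lipid anchor, and the pair then activates the kinase Ret. Its relative neurturin uses GFRα2 (Gfra2) in the same way. In embryonic spinal cord these receptors are best known from motor neurons, while a truncated TrkB without the kinase is typical of glia.

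In these arrays no member separated knockout from wild type. The receptors and co-receptors read between 10.10 and 12.01 on the log2 scale in all 6 arrays, while Bdnf and Gdnf read between 6.39 and 7.38. Levels are RMA values, on which 1 unit is a doubling of signal, and since probes differ in how well they bind, they are not compared as amounts of RNA between genes. A guide to background was the 95th percentile of the mean level of 1190 olfactory and vomeronasal receptor genes, which are not expected in cord. It lay at 6.14, and the mean over 6 arrays was above it for all 8 members. Of the 8, 5 were nominally higher in knockout and 3 lower, with a median difference of 0.02, beside 46.4% of all genes higher and a median of -0.0069. By limma with Benjamini-Hochberg adjustment over all genes, 0 of 8 passed an adjusted p of 0.05, as did 0% of all genes. An unadjusted p under 0.05 was reached by 0 of 8 members and by 1.70% of all genes, and groups that did not overlap were found for 0 of 8 members and 5.82% of all genes.

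**Figure D1:**
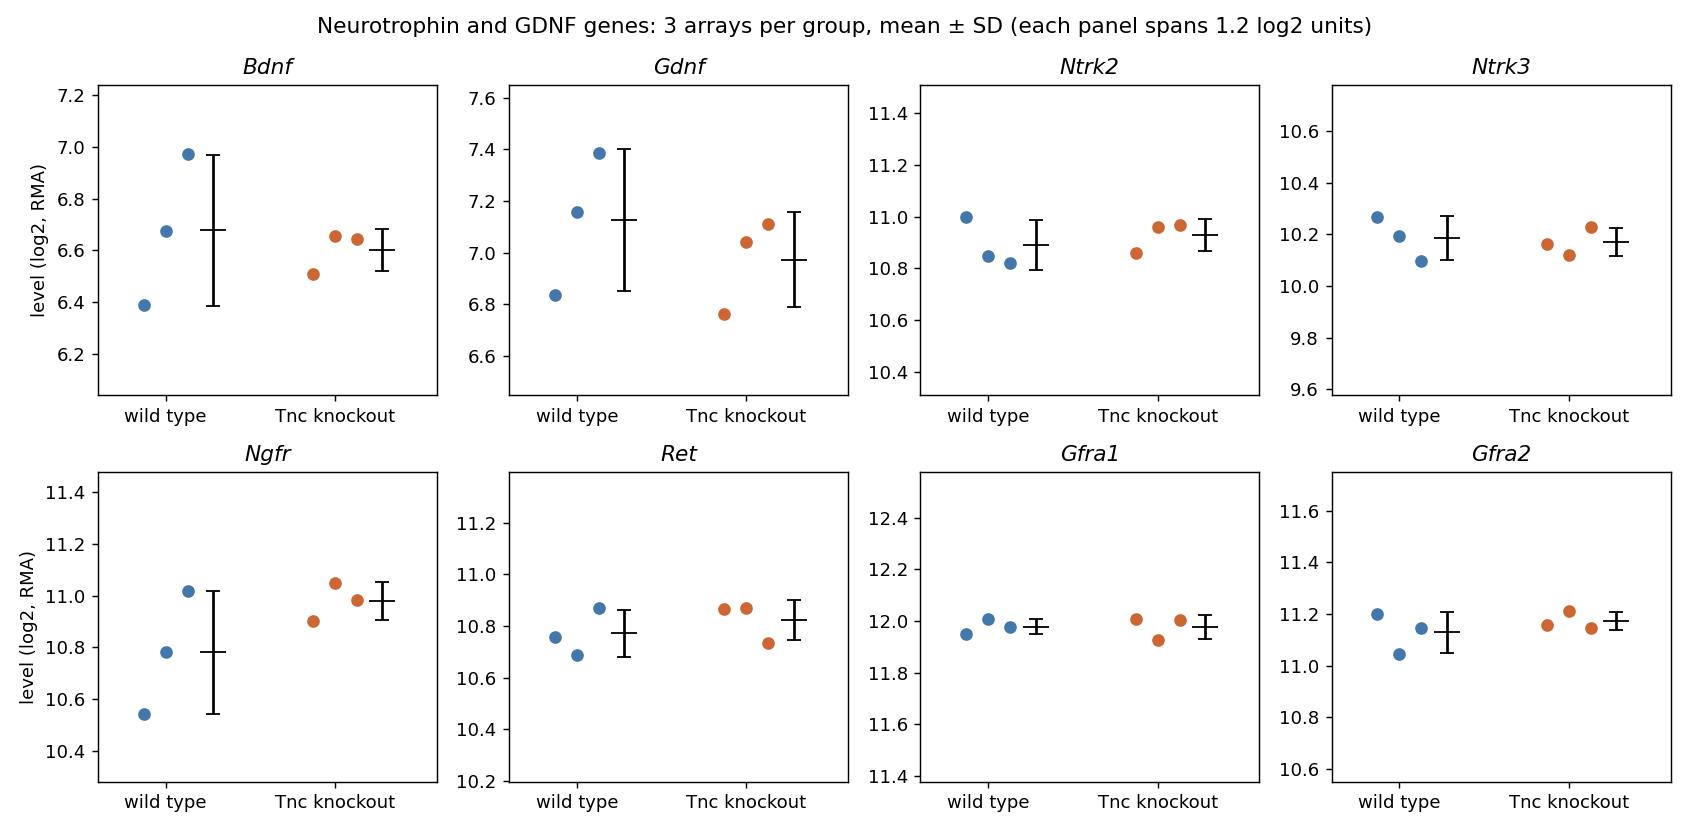
Level of each member on each array (y axis, log2 RMA value; blue points, 3 wild-type arrays; orange points, 3 knockout arrays; black bars, mean ± SD), with every panel spanning the same number of log2 units. The points of both groups overlap in all 8 panels, and those of Bdnf, Gdnf and Ngfr spread further than those of the other 5 genes.

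As a check of the labels, Tnc read 10.72, 10.22 and 10.02 in the wild-type arrays and 9.64, 9.76 and 9.47 in the knockout arrays, and these groups did not overlap. The knockout signal of Tnc was 61.8% of wild type. With a mean of 9.62 it stayed above the background guide of 6.14, so Tnc signal remained in the knockout arrays. Its difference was -0.69 (95% confidence interval -1.09 to -0.30), with an adjusted p of 1 by limma. The exact two-sided permutation p was 0.1, the smallest that 3 arrays against 3 can give, so no single gene can pass 0.05 by that test. Y-linked signal also differed between arrays: the mean of Uty, Eif2s3y and Kdm5d was 8.20 and 7.86 in knockout replicates 1 and 3 and between 4.32 and 4.48 in the 4 other arrays. Xist, an RNA of the inactive X chromosome, read 5.44 and 5.38 in knockout replicates 1 and 3 and between 11.60 and 12.25 in the 4 others. By these readings knockout replicates 1 and 3 were male and the 4 others female. Sex is thus partly confounded with genotype in every comparison here. The neuronal markers Tubb3 and Dcx read between 12.14 and 12.90, and the radial glial and astrocyte markers Slc1a3 and Fabp7 between 11.92 and 13.61. The main component of variation held 49.0% of the variance over all genes and had wild-type replicates 1 and 3 at its ends.

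The ligands are taken first. Bdnf read 6.39, 6.67 and 6.97 in wild type and 6.51, 6.66 and 6.64 in knockout. The wild-type arrays hold both the lowest and the highest reading, and all 3 knockout arrays lie between them. The means were 6.68 ± 0.29 and 6.60 ± 0.08 (SD, n = 3 each), a difference of -0.08 with an interval from -0.40 to 0.25, and its sign turned without wild-type replicate 3 (0.07). Gdnf read 6.84, 7.16 and 7.38 in wild type and 6.76, 7.04 and 7.11 in knockout. Here knockout replicate 1 was lowest and wild-type replicate 3 highest, and the groups overlapped. The means were 7.13 ± 0.28 and 6.97 ± 0.18 (SD, n = 3 each). The difference of -0.15, with an interval from -0.50 to 0.19, stood for a knockout signal 89.8% of wild type, and signals from 70.6% to 114% lie within the interval. In bulk tissue fewer cells of a type and less RNA per cell cannot be told apart, here or for the genes that follow.

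Among the neurotrophin receptors, Ntrk2 read 11.00, 10.85 and 10.82 in wild type and 10.86, 10.96 and 10.97 in knockout. All 3 knockout arrays fell within the wild-type span of readings. The difference was 0.04, with an interval from -0.14 to 0.22. Ntrk3 read 10.27, 10.19 and 10.10 in wild type and 10.16, 10.12 and 10.23 in knockout, again with every knockout array inside the wild-type range. Its difference was -0.02, with an interval from -0.19 to 0.16, and its sign turned when each array was centred on its median (0.01). For both Trk receptor genes the intervals leave a knockout signal between 87.5% and 117% of wild type. Their single rows do not tell forms with the kinase from truncated ones.

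Ngfr had the largest difference of the 8 members. It read 10.54, 10.78 and 11.02 in wild type and 10.90, 11.05 and 10.99 in knockout. Wild-type replicates 1 and 2 were below every knockout array, but wild-type replicate 3 was above knockout replicates 1 and 3. The means were 10.78 ± 0.24 and 10.98 ± 0.07 (SD, n = 3 each), and the difference of 0.20 had an interval from -0.08 to 0.48. Neither limma (unadjusted p = 0.140, adjusted p = 1) nor the exact permutation test (p = 0.3, two-sided) passed. The difference was 0.08 without wild-type replicate 1 and 0.32 without wild-type replicate 3. Without replicate 3 the groups did not overlap and the unadjusted p by limma was 0.0103 (adjusted p = 0.697). In that setting 1377 of all 19938 genes had an unadjusted p under 0.05. Over the settings that left out 1 array, 2192 to 4684 genes had groups without overlap. With a term for Y-linked signal the difference of Ngfr was 0.27. That term leaves knockout replicate 2, which had the highest Ngfr reading, as the only knockout array at the wild-type level of Y-linked signal. The difference of Ngfr was 0.23, without overlap, when arrays were centred on their medians (adjusted p = 1 by limma). The counts over all genes with centred arrays are given in the last section.

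Motor neuron markers moved between arrays much as Ngfr did. The mean level of the 16 listed markers was 8.44, 8.61 and 8.74 in wild type and 8.67, 8.70 and 8.67 in knockout. As with Ngfr, wild-type replicate 1 was lowest and the knockout arrays were close together. Both traits also held, over a smaller span, for the mean of all genes. It was 7.82, 7.85 and 7.89 in wild type and 7.85, 7.84 and 7.86 in knockout, so they are not particular to motor neuron markers. The differences were above 0 for 14 of 16 markers, beside 46.4% of all genes. The median of the markers was 0.10, and 0 of them passed. All 16 were above the background guide, and their median was -0.0012 without wild-type replicate 1. Of the defining markers Mnx1, a motor neuron homeobox factor, read from 6.41 to 7.01 in wild type and from 6.77 to 6.97 in knockout. Chat, which makes acetylcholine, read from 6.57 to 6.91 and from 6.74 to 6.84. Isl1, a homeobox factor of motor and other neurons, read from 8.95 to 9.28 and from 8.98 to 9.32. The part of these markers in the Ngfr readings was not tested.

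The 3 receptor and co-receptor genes of the GDNF family differed by less than their replicates spread. Ret read 10.76, 10.69 and 10.87 in wild type and 10.87, 10.87 and 10.74 in knockout. The lowest and the highest reading were both wild-type, and the knockout arrays lay between them. Its difference was 0.05, with an interval from -0.14 to 0.24, so a knockout signal from 91.1% to 118% of wild type lies within it. Gfra1 read 11.95, 12.01 and 11.98 in wild type and 12.01, 11.93 and 12.00 in knockout, a span of 0.08 over all 6 arrays. The difference was 0.00017, with an interval from -0.16 to 0.16, which allows a knockout signal between 89.6% and 112% of wild type. Its sign has no meaning at this size and turned with several single arrays. Gfra2 read 11.20, 11.04 and 11.15 in wild type and 11.16, 11.21 and 11.15 in knockout, and the groups overlapped. Its difference was 0.04, with an interval from -0.13 to 0.21, and it was -0.00096 without wild-type replicate 2.

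**Figure D2:**
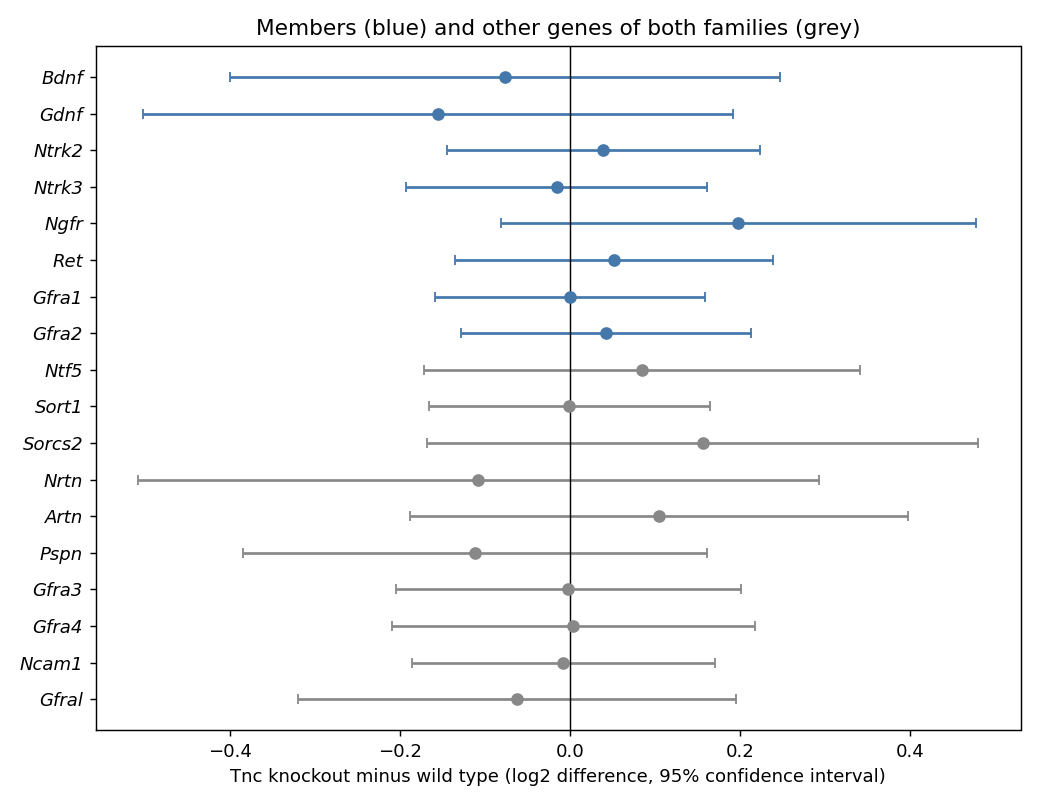
Knockout minus wild type for the 8 members (blue) and 10 other genes of both families (grey), as the log2 difference (points) with its 95% confidence interval from limma (bars). Every interval crosses 0, and those of Bdnf, Gdnf, Ngfr, Nrtn, Artn and Sorcs2 are the 6 widest.

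The members differed in how far replicates spread. The within-group SD of Ngfr, 0.18, was larger than that of 94.8% of the 1986 genes whose mean level lay within 0.5 log2 units of its own. For Gdnf (0.23) the share was 86.0% of 2685 genes and for Bdnf (0.21) it was 78.4% of 2893 genes. These 3 were more variable than most genes of like level. Ret (0.08) and Ntrk2 (0.08) were near the middle, at 51.5% and 49.4%. Ntrk3 (0.07), Gfra2 (0.06) and Gfra1 (0.04) lay lower, at 31.1%, 30.9% and 16.9%.

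Bdnf, Gdnf and Ngfr also shared an order of arrays within wild type, where replicate 1 read lowest and replicate 3 highest for each. The receptor genes that served as the background guide did the same, with means of 4.45, 4.52 and 4.65 in wild type and 4.49, 4.49 and 4.60 in knockout. The mean of these 1190 genes spanned 0.20, and the single genes Bdnf, Gdnf and Ngfr spanned 0.58, 0.62 and 0.51. Averaging removes spread of single genes, so the span of the mean and those of single genes are unlike measures. Ntrk2 and Ntrk3 ran the other way, highest in wild-type replicate 1 and lowest in wild-type replicate 3. With arrays centred on the guide genes, the differences of Bdnf, Gdnf and Ngfr were -0.06, -0.14 and 0.21. Skeletal muscle markers, listed since embryonic muscle is a source of Gdnf, had mean levels of 6.37, 6.57 and 6.75 in wild type and 6.47, 6.53 and 6.64 in knockout. Of 16 muscle markers 6 had a difference above 0, the median was -0.0035 and 5 were under the background guide. The defining markers Myog and Acta1 read from 6.27 to 6.55 and from 7.63 to 8.04, with differences of -0.0024 and 0.15. Acta1, higher in knockout, was the only 1 of 16 muscle markers without overlap, beside 5.82% of all genes. The part of muscle in the Gdnf readings was not tested.

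**Figure D3:**
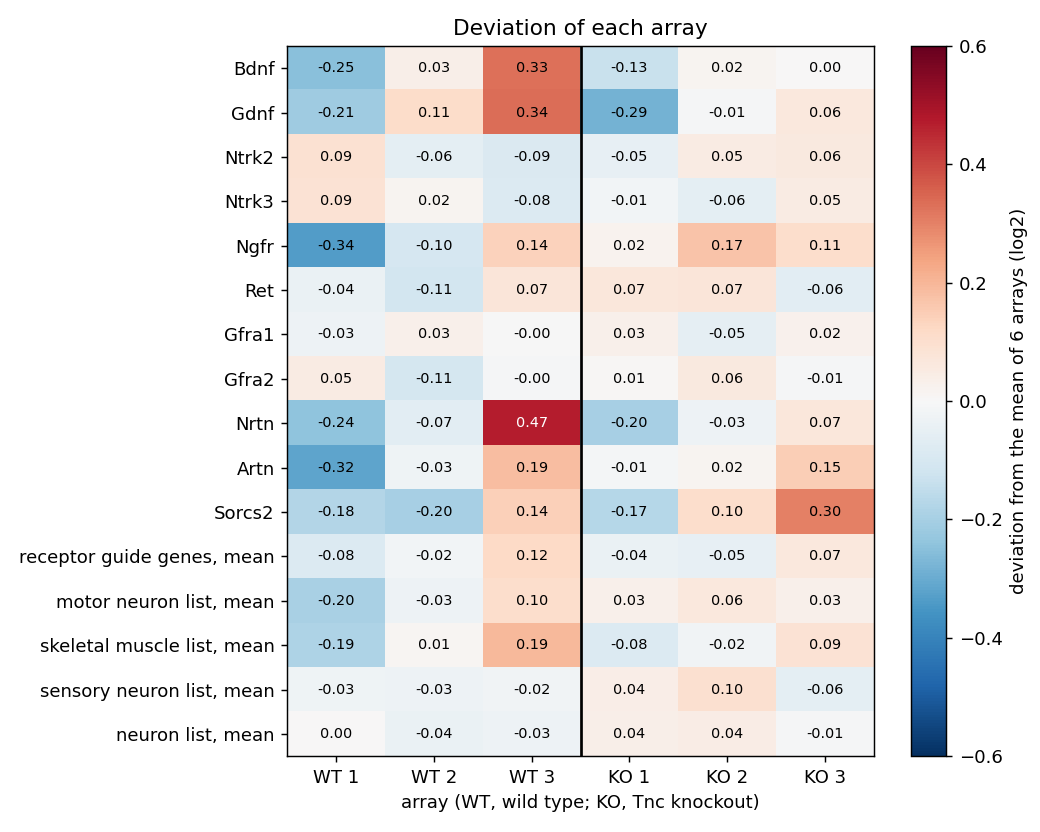
Deviation of each array (columns; WT, wild type; KO, knockout) from the mean of all 6 arrays, in log2 units, for members, for 3 further genes and for the mean level of marker lists (rows). Blue is below and red above the mean; wild-type replicate 1 is at -0.25 for Bdnf, -0.21 for Gdnf and -0.34 for Ngfr, and wild-type replicate 3 at 0.33, 0.34 and 0.14.

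For the 3 members that spread most between arrays, the starts at which a searched motif was found are shown, with motif letters in capitals. RefSeq promoters of GRCm38.p6, from 250 bases before to 50 bases after an annotated start, were in the table for 5 of 8 members, 12 promoters in all. Bdnf has 7 of them, Gdnf 2, and Ntrk2, Ngfr and Gfra1 have 1 each, and the single Bdnf row does not tell its starts apart.
Ngfr, GRCm38.p6, chr11:95587649-95587948, minus strand: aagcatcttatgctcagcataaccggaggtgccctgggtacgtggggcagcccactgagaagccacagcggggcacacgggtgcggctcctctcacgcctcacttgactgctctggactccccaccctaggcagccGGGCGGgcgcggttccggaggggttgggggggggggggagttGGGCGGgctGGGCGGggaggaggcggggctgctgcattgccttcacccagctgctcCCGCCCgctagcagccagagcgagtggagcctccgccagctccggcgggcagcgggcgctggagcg
Gdnf, start 1, GRCm38.p6, chr15:7809798-7810097, plus strand: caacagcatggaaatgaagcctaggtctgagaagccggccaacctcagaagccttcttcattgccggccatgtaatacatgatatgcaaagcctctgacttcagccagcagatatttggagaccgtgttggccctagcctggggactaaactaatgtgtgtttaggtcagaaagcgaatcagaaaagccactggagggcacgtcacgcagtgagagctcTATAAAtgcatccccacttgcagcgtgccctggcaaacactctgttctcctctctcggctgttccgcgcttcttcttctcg
Bdnf, start 2, GRCm38.p6, chr2:109676782-109677081, plus strand: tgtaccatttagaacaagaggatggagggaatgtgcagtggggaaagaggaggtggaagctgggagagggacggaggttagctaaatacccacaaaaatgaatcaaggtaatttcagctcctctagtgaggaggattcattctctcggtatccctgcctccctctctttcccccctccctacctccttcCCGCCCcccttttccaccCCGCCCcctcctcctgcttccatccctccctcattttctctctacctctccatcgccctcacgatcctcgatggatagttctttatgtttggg
Bdnf, start 4, GRCm38.p6, chr2:109692777-109693076, plus strand: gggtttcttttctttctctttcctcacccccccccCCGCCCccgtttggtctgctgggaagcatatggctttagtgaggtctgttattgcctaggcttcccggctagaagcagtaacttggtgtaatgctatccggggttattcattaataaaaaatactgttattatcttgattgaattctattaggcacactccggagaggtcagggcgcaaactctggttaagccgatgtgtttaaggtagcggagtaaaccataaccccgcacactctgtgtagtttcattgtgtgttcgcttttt
On both strands 4 short motifs were searched, and no matches overlapped. The cyclic AMP response element (CRE) was searched as TGACGTCA. For the E-box of bHLH factors the search letters were CACGTG. A GC box, known as a site of Sp factors, was taken as GGGCGG. Finally the TATA box was written TATAAA. GC boxes were found in 4 of the 12 promoters (Ngfr, with 4 matches, both Bdnf starts shown, and Ntrk2), and in 35.7% of 32851 promoters of the same length. The TATA box was found in 1, Gdnf start 1 (13.6% of all promoters). CRE and E-box letters were found in 0 of 12 (1.79% and 7.15% of all promoters). A match is a description of these letters and not evidence of binding.

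The rest of both families gave the same picture, and 0 of 10 measured genes had an unadjusted p under 0.05 or groups without overlap. Of 13 further genes listed, 10 were measured, 4 nominally higher and 6 lower, with a median of -0.0013. Among ligands, neurturin (Nrtn), which acts through Gfra2 and Ret, read 7.27, 7.44 and 7.98 in wild type and 7.31, 7.48 and 7.58 in knockout. Its groups overlapped, its difference was -0.11, and it was 0.10 without wild-type replicate 3. Artemin (Artn) differed by 0.10 (-0.03 without wild-type replicate 1), persephin (Pspn) by -0.11 and Ntf5, which encodes the TrkB ligand neurotrophin-4/5, by 0.08 (from 0.0017 to 0.17 with single arrays left out). The mean levels of Artn and Ntf5 were under the background guide, as was that of Gfral (-0.06), the hindbrain receptor for GDF15. Gfra3, the artemin co-receptor, and Gfra4, the persephin co-receptor, differed by -0.0020 and 0.0042. Sort1, a sorting receptor that binds neurotrophin precursors together with Ngfr, differed by -0.00067, and its relative Sorcs2 by 0.16 (from 0.044 to 0.28 with single arrays left out) with overlapping groups. Ncam1, a cell adhesion molecule that can bind GDNF without Ret, differed by -0.0077.

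Downstream of the receptors, 40 of 49 listed adaptors, kinases and co-receptors were measured, with 29 nominally higher and 11 lower and a median of 0.02. Of these, 0 passed the test and 0 had an unadjusted p under 0.05. Groups did not overlap for 3 of 40 (2 higher and 1 lower in knockout), beside the 5.82% of all genes. These were Lingo1, a partner of Ngfr in the Nogo receptor complex, and, named after their values were seen, the adaptor Grb2 and the lipid kinase subunit Pik3ca. Lingo1 read 10.80, 10.83 and 10.87 in wild type and 10.94, 10.98 and 10.95 in knockout. Its knockout arrays were all above its wild-type arrays, by a mean of 0.12 with an interval from -0.03 to 0.28 (adjusted p = 1 by limma). The adaptor genes Shc1 and Irs1 differed by 0.14 and 0.12 with overlapping groups. When the mean of the rows of a gene was used, the difference of Irs1 was 0.022. Of 25 genes that respond to growth factor and activity signals, 9 were nominally higher and 16 lower, with a median of -0.02, 0 past the test and 0 without overlap. The smallest p values were those of the nuclear receptor Nr4a2 (0.20) and the transcription factors Egr3 (-0.18) and Npas4 (-0.12), given as differences.

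Markers of other cells that the dissection could hold are given as their mean level over the list. Counts above 0 stand beside 46.4% of all genes. Sensory ganglion markers (14 measured, 10 with a difference above 0, median 0.05) ranged from 7.57 to 7.58 in wild type and 7.54 to 7.70 in knockout, with 4 under the guide. Among them Avil, of ganglion neurons, read from 5.90 to 6.33, while Pou4f1 (9.45 to 9.78) and Prrxl1 (9.77 to 10.18) are also made by dorsal cord neurons. Schwann and crest markers (10 measured, 5 above 0, median 0.0025) ranged from 7.50 to 7.68 and from 7.58 to 7.61, with Sox10, also of oligodendrocyte precursors, from 8.17 to 8.28. For both lists the ranges of the groups overlapped. Meningeal markers (13 measured, 3 above 0, median -0.12) ranged from 8.31 to 8.42 and from 8.22 to 8.34, with Col1a1 from 7.87 to 8.30 and Dcn from 9.30 to 10.15. Col1a1 and Dcn went opposite ways, with differences of -0.15 and 0.38 and overlapping groups. Endothelial markers (14 measured, 13 above 0, median 0.15) ranged from 8.57 to 8.67 and from 8.66 to 8.83, with Cldn5 from 10.36 to 10.70. Pecam1, an endothelial adhesion molecule, read 8.04, 8.05 and 8.11 in wild type and 8.26, 8.39 and 8.15 in knockout, where all 3 arrays were higher (unadjusted p = 0.0421, adjusted p = 1 by limma). Groups did not overlap for 5 of the 14 endothelial markers, all higher in knockout, and 4 of the 14 had an unadjusted p under 0.05. Over all genes these shares were 5.82% and 1.70%. Astroglial markers (15 measured, 8 above 0, median 8.3e-05) ranged from 9.66 to 9.72 and from 9.66 to 9.75, and neuronal markers (17 measured, 12 above 0, median 0.06) from 11.78 to 11.82 and from 11.81 to 11.86. Groups did not overlap for 3 astroglial markers (2 higher, 1 lower; all 3 with an unadjusted p under 0.05), 4 neuronal markers (all higher) and 1 marker each of meninges (lower, also with an unadjusted p under 0.05), motor neurons (higher) and muscle (higher), beside the 5.82% of all genes, and for 0 sensory or Schwann markers. None of these markers passed over all genes, and their part in the readings of the members was not tested.

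The genes whose readings over the 6 arrays were most like those of 3 signalling receptors are named as a description. Likeness was Pearson's r across arrays, among 14683 other genes above the background guide. For Ntrk2 these were Mir680-1 (r = 0.99) and Zbtb25 (r = 0.98), for Ntrk3 Marchf2 (r = 0.99) and Mapk1ip1l (r = 0.98), and for Ret Baz1a (r = 0.99) and Wfdc1 (r = 0.98). With 6 arrays such values are common: r was over 0.9 for 94 genes with Ntrk2, 132 with Ntrk3 and 59 with Ret. All of these genes share the same arrays and their normalization.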

How the data were processed

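Total RNA was amplified and biotin-labelled for Affymetrix whole-transcript arrays, per the labels' protocols. The deposited log2 values came from RMA, a tool that the submitters' processing notes name without its version. RMA includes a step that equalises signal distributions between arrays, which can remove a global shift and compress small differences. Some shift between arrays remained in the deposited values, with medians from 6.96 (knockout replicate 1) to 7.10 (wild-type replicate 3). The table holds 35557 rows. Genes were named from GEO's platform annotation for the 21789 rows with 1 symbol (1621 had several and 12147 were not listed), updated through entrez identifiers to RefSeq (GRCm38.p6, 19856 of 19938 genes matched), and the row with the highest mean stood for a gene. Knockout and wild type were compared with limma 3.58.1 in R 4.3.3 (lmFit and eBayes, group as the only term, all 6 arrays), two-sided, adjusted over all 19938 genes by the Benjamini-Hochberg method, and with exact permutation tests in scipy 1.17.1. The test was checked on simulated data with independent noise for each gene. Such data lack the variation that genes of an array share, so the check does not cover it. No depth applies to arrays, and their number limits the precision.

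The members and gene lists were chosen with earlier results of these data known. Named genes are the members, Tnc, the other measured genes of both families, the 3 of smallest p in each of 2 downstream lists, defining markers fixed by name, the Y-linked genes, and the 2 genes most like each of Ntrk2, Ntrk3 and Ret. Lists share genes. The replicate numbers are not said to pair samples across groups, so they were not taken as pairs in the main test. Same-numbered arrays of the groups had deviations from group means that correlated by 0.35, -0.07 and 0.45. These values do not settle whether the numbers pair samples. The alternatives were leaving out arrays, a replicate block, filters on dim genes, a variance trend, array weights, normalizations, other rows and a term for Y-linked signal. Centring on guide genes was added after seeing the data.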

Additional observations from a re-analysis of the deposited data

How the results depend on the processing

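Over 18 alternatives 0 of 8 members passed the test in any, and the differences of Ntrk2, Ngfr, Gdnf and Ret kept their sign in all of them. Leaving out 1 array gave ranges of -0.060 to 0.024 for Ntrk3, -0.22 to 0.071 for Bdnf, -0.015 to 0.027 for Gfra1, -0.00096 to 0.077 for Gfra2, 0.0045 to 0.094 for Ntrk2, 0.010 to 0.10 for Ret, 0.079 to 0.32 for Ngfr and -0.30 to -0.025 for Gdnf. It gave 0 to 1 members with an unadjusted p under 0.05 (1, Ngfr, without wild-type replicate 3) and 0 to 3 without overlap (Bdnf, Gdnf and Ntrk2 without wild-type replicate 1). Over all genes it gave 0 to 4 past the test (4 without knockout replicate 2, all sex-linked) and 220 to 1377 with an unadjusted p under 0.05 (1377 without wild-type replicate 3). Groups did not overlap for 2192 to 4684 of 19938 genes in these settings, beside 1161 with all 6 arrays. Groups separate more easily with 1 array fewer, so the 3 members without overlap are not read as a result. Single arrays also turned Sort1 (-0.020 to 0.033), Nrtn (-0.26 to 0.099), Artn (-0.027 to 0.22), Gfra3 (-0.076 to 0.045), Gfra4 (-0.072 to 0.055), Ncam1 (-0.038 to 0.047) and Gfral (-0.18 to 0.0088).

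With arrays centred on their medians the differences were Ntrk3 0.015, Sort1 0.030, Gfra3 0.028, Ncam1 0.023, 1 member (Ngfr) had an unadjusted p under 0.05 and groups without overlap, beside 400 and 1429 of all 19938 genes, and the signalling median was 0.055. Centring on guide genes gave Sort1 0.015, Gfra3 0.014, Ncam1 0.0079, 1 member without overlap (Ngfr, beside 975 of all genes) and a signalling median of 0.040. Renewed quantile normalization gave Sort1 0.0030, Gfra3 0.0087. With array weights, whose estimation stopped before convergence, the differences were Ret 0.14, Gfra1 -0.045, Sort1 0.030, Nrtn 0.0058, Gfra3 0.063, Gfra4 -0.095, Ncam1 0.040, with 3 members (Gfra2, Ngfr and Ret, adjusted p from 0.131 by limma) and 4181 genes at an unadjusted p under 0.05. The term for Y-linked signal, which leaves knockout replicate 2 as the only knockout array at the wild-type level of that signal, gave Gfra1 -0.053, Sort1 0.035, Gfra3 0.14, Gfra4 -0.060, Ncam1 0.025, a signalling median of 0.041 and 208 genes at an unadjusted p under 0.05. Without wild-type replicates 1 and 3 together, which leaves 1 wild-type array assumed to vary like the knockout arrays, the differences were Gfra1 -0.031, Sort1 0.025, Nrtn 0.011, Gfra3 0.012, Gfra4 -0.094, Ncam1 0.040. It left 7 members and 9772 genes without overlap, since 1 array has no range, and 844 genes at an unadjusted p under 0.05. All rows adjusted together gave 9 of 35557 rows past the test, none a member. Of these 35557 rows, 860 had an unadjusted p under 0.05 and 2174 were without overlap, so the counts are not over the 19938 genes. The replicate block raised the genes at an unadjusted p under 0.05 from 339 to 636 and changed no call, and 4 of 6 arrays were closest to the array of their own number. With the block the unadjusted p by limma was 0.0671 for Ngfr and 0.0932 for Gdnf. Compared with the main fit it was also lower for Bdnf, and higher for Ntrk2, Ntrk3, Ret, Gfra1 and Gfra2. Filters on dim genes, the variance trend and the mean of rows left each member's value as it was. The cause of the other shifts was not tested.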
